A study of Mus musculus with 6 samples.

Results

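The genes described here are 10 that encode proteins joining the sperm head to its tail, together with the SUN proteins of the spermatid nuclear envelope: Sun5, Sun3, Spag4, Spata6, Spatc1l, Pmfbp1, Cntln, Ccdc42, Tsga10 and Cep112. They were chosen by name for these roles and found by their Ensembl identifiers. All 10 were among the 51826 gene identifiers in the count tables, and all 10 were among the 21518 genes that passed the filter on low counts. RNA was sequenced from whole testes of C57BL/6J mice at 8 weeks of age, in 3 KIFC1 knockout (KO) samples and 3 wild-type (WT) samples. KIFC1 is a kinesin-14 motor that walks towards microtubule minus ends, and the series asks which testis transcripts differ without it. The sources used here give neither the knockout allele nor the cells in which Kifc1 was deleted.

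A sperm tail is held to the nucleus by the head-tail coupling apparatus, a stack of plates and segmented columns built around the centrioles at a dent in the nucleus called the implantation fossa. SUN proteins cross the inner nuclear membrane and bind KASH-domain nesprins of the outer membrane, so that together they link the nucleus to the cytoskeleton in what is called the LINC complex. In spermatids SUN5 sits at the implantation fossa, while SUN3 and SPAG4 (also called SUN4) lie along the sides of the nucleus, where the microtubules of the manchette surround the elongating head. Loss of several of these proteins gives sperm whose heads and tails come apart, known in men as acephalic spermatozoa.

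The library totals ran from 29274603 to 38703606 counts, and values below are counts per 1000000 counts after TMM scaling (CPM). At this depth 3 counts correspond to between 0.0775 and 0.102 CPM. The 10 genes lay far above that floor, with raw counts from 1001 for Cntln in WT sample 1 to 29050 for Pmfbp1 in KO sample 1. Kifc1 itself had 0.326, 0.737 and 0.282 CPM in the KO samples, against 15.5, 16.1 and 14.7 CPM in the WT samples, so the labels fit the targeted gene. The libraries also differed in ways that move with genotype. Genes of the mitochondrial genome held 1.54% to 5.74% of counts in KO libraries and 0.661% to 0.935% in WT libraries. Each gene's deviation from its mean fell with GC content in every KO library (Spearman rho across 12751 genes from -0.684 to -0.129) and rose with it in every WT library (0.261 to 0.538). Each of the 10 genes is therefore given from edgeR's quasi-likelihood fit and again from the same fit after removal of each library's GC and exon length trends. Since no label ties each sample to its own animal, the p-values cover the spread among these 6 samples alone, and that spread may be technical. In whole testis, fewer cells of a type cannot be told apart from less RNA per cell.

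The promoter windows of 3 of the genes are shown: Spag4 and Cntln because they are the members that passed the test, and Ccdc42 because its level was nearly the same in both groups. They are RefSeq sequences on GRCm38.p6, each from 250 bases before to 50 bases after the start of the RefSeq transcript, read in the direction of transcription. That start lies 38 bases for Spag4, 0 for Cntln and 16 for Ccdc42 downstream of the GENCODE gene start given below, so distances to it are from the RefSeq start. The Spag4 window is chr2:156064963-156065262 on the plus strand, the Cntln window chr4:84884059-84884358 on the plus strand and the Ccdc42 window chr11:68586787-68587086 on the plus strand. Capitals mark matches to a cAMP response element (CRE) or its shorter core, or to an RFX X-box.
Spag4: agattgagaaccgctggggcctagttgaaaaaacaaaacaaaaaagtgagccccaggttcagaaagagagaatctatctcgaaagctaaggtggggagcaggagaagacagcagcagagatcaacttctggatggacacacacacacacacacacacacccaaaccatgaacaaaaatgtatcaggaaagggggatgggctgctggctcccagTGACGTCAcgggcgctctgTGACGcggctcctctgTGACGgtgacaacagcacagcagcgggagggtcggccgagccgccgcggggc
Cntln: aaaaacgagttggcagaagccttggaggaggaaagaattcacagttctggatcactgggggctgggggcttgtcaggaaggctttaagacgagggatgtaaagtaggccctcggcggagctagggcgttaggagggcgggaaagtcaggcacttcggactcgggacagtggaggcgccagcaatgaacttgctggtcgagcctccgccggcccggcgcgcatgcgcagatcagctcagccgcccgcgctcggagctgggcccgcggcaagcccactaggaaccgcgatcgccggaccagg
Ccdc42: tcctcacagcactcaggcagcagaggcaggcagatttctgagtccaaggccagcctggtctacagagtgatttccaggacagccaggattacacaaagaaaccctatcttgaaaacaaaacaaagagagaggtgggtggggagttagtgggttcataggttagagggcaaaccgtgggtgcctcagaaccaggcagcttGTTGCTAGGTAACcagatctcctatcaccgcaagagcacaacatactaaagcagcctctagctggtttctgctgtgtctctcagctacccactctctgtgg
Of the 10 genes, 9 had a window in the table, and Pmfbp1 did not. The CRE, TGACGTCA, is the site bound by the spermatid activator CREM and its relatives, and RFX proteins bind X-boxes at many ciliary and centrosomal genes. Each motif was searched on both strands, in the window nearest the annotated gene start where a gene had several. The full CRE was found in 1 member, Spag4, 37 bases before the RefSeq start, and in 1.79% of all 32851 windows. Its core TGACG, which is part of the full site, was found in 2 members, Spag4 and Spata6, and in 20.8% of windows. An X-box, taken as a pair of arms 0 to 3 bases apart, was found in 2 members, in Ccdc42 at 51 bases and in Cep112 at 240 and 84 bases before the start, and in 1.53% of windows. The Cntln window had no match to these motifs. A match describes the letters of the window and no binding was measured.

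Of the 10 genes, 1 rose in KO testes (Cntln), 1 fell (Spag4) and 8 did not pass the test, which is an adjusted p under 0.05 over all genes tested (edgeR's quasi-likelihood test, Benjamini-Hochberg). Across all 21518 genes 3.11% rose and 5.12% fell, 8.23% in all. No test was run over the 10 genes as a list, so the counts here are a description. The DESeq2 Wald test called 5 of the 10, with 3 that rose (Cntln, Pmfbp1 and Tsga10) and 2 that fell (Spag4 and Spatc1l), against 7.66% that rose and 9.00% that fell among the genes it tested, 16.7% in all. At an unadjusted p under 0.05 in edgeR's fit, 4 of the 10 were higher and 2 lower, against 12.1% and 15.0% of all genes, 27.1% in all. The log2 fold change, KO over WT, was positive in 8 of the 10 genes and negative in 2, with a median of 0.34. Over all genes tested it was positive in 10610 and negative in 10908, with a median of -0.009. The groups did not overlap for 6 of the 10. All KO samples lay above all WT samples for Pmfbp1, Cntln, Tsga10 and Cep112 and below them for Spag4 and Spatc1l, while over all genes 14.6% lay wholly above and 18.1% wholly below, 32.7% in all. With the GC and length trends removed, 0 of the 10 passed the test and 3 were higher at an unadjusted p under 0.05 (Sun5, Pmfbp1 and Cntln) and 0 lower. Over all genes in that fit 0.0604% passed the test, and 11.1% were higher and 10.6% lower at an unadjusted p under 0.05. The members' median was then 0.21, with 6 positive values and 4 negative. Over all genes in that fit 10874 values were positive and 10644 negative. Spag4 and Cntln passed the test in a fit without the genes of the mitochondrial genome. Of 16 alternative fits, that one included, Spag4 passed in 7 and Cntln in 4.

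**Figure D1:**
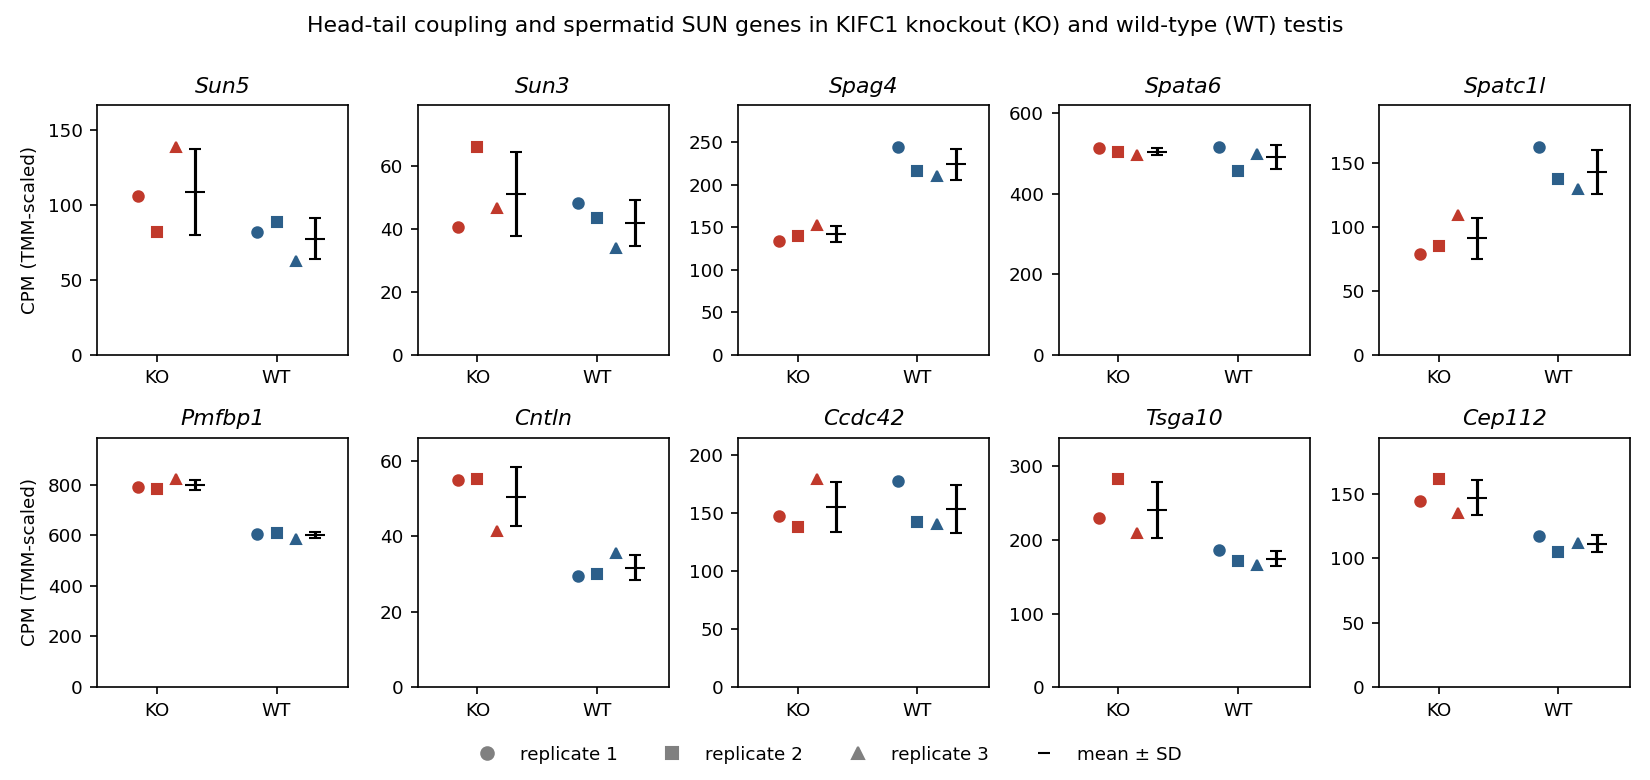
Level of each of the 10 genes in every sample, in TMM-scaled CPM on axes that start at 0, with KO samples left of WT samples; symbols mark the replicate number and bars the mean ± SD of 3 samples. The KO samples lie above the WT samples for Pmfbp1, Cntln, Tsga10 and Cep112, below them for Spag4 and Spatc1l, and the groups overlap for Sun5, Sun3, Spata6 and Ccdc42.

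Of the spermatid SUN genes, Spag4 fell in KO testes, a call that ended with the GC and length trends removed, and Sun5 and Sun3 did not pass the test in either fit. Spag4 (ENSMUSG00000038180, mm10 chr2:156065175-156070617, plus strand) encodes the SUN protein of the manchette-facing envelope whose loss in mice disorganises the manchette. It had 133, 139 and 153 CPM in KO samples 1, 2 and 3, against 244, 216 and 211 CPM in WT samples 1, 2 and 3. Every KO sample was below every WT sample, with a log2 fold change of -0.66 and an SE of 0.14 (edgeR adjusted p = 0.0272). With the GC and length trends removed, the difference shrank to -0.20 (95% interval -0.59 to 0.19, edgeR adjusted p = 0.542). Spag4 is the most GC-rich of the 10, with 59.3% in its longest protein-coding transcript. Its adjusted p was between 0.0615 and 0.131 when any sample other than KO 2 was left out.

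Sun5 (ENSMUSG00000027480, mm10 chr2:153856188-153871084, minus strand) encodes the SUN protein that anchors the coupling apparatus at the implantation fossa, and mice without it make headless sperm. It had 106, 81.9 and 139 CPM in KO samples 1, 2 and 3, against 82.1, 88.7 and 62.4 CPM in WT samples 1, 2 and 3. The groups overlapped because KO sample 2 lay at the level of the WT samples. Its log2 fold change was 0.49 (SE 0.22, edgeR adjusted p = 0.191), against 0.72 without the trends (95% interval 0.29 to 1.15, edgeR adjusted p = 0.0952). The interval of the second fit excluded 0, but the gene did not pass the test over all genes in either.

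Sun3 (ENSMUSG00000040985, mm10 chr11:9016054-9048991, minus strand) encodes the partner of SPAG4 along the manchette. It had 40.7, 66.0 and 46.6 CPM in KO samples 1, 2 and 3, against 48.2, 43.5 and 34.0 CPM in WT samples 1, 2 and 3. Here KO sample 2 was the high one, and the other KO samples lay within the WT range. Sun3 differed by 0.29 on the log2 scale (SE 0.22, edgeR adjusted p = 0.432), and by 0.22 with the trends removed. Sun3 shares 123 exon bases with Gm11992 on the opposite strand, which had a mean of 46.6 CPM in KO and 58.8 CPM in WT samples. The strand setting of the counting is not given, so the levels of such overlapping genes are uncertain.

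The balance of the 3 SUN genes was compared within each library, where depth and scaling cancel out. Counts were divided by the summed length of the exons to give counts per kilobase and per 1000000 counts (RPKM), and each gene's share of the sum over the 3 was taken. Spag4 made up 19.0%, 19.7% and 17.5% of that sum in KO samples 1, 2 and 3, against 32.8%, 29.8% and 36.2% in WT samples 1, 2 and 3. The mean share was 18.8% ± 1.13 in KO and 32.9% ± 3.19 in WT samples (SD, n = 3 each), a difference of -14.2 percentage points. Every KO sample was below every WT sample, which gives the smallest p a two-sided exact permutation test of 3 against 3 can reach, p = 0.1 (0.3 adjusted over the 3 shares). Sun5 held 55.8% ± 9.08 in KO and 44.4% ± 3.10 in WT samples (exact permutation p = 0.2), and Sun3 25.4% ± 8.14 in KO and 22.7% ± 1.21 in WT samples (exact permutation p = 1).

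As a direct ratio, Spag4 counts over Sun5 counts stood at a log2 of 0.33, 0.77 and 0.14 in KO samples 1, 2 and 3, against 1.57, 1.29 and 1.75 in WT samples 1, 2 and 3. The ratio was lower in all KO samples, by a mean of -1.13 (exact permutation p = 0.1, 0.15 adjusted over 3 ratios). The log2 ratio of Spag4 to Sun3 differed by -0.93 (exact permutation p = 0.1, 0.15 adjusted). The log2 ratio of Sun5 to Sun3 differed by 0.20, with overlapping groups (exact permutation p = 0.7). The Spag4 shift was smaller with the GC and length trends removed, where its share was 18.5%, 25.6% and 18.2% in KO samples 1, 2 and 3, against 34.8%, 26.6% and 30.0% in WT samples 1, 2 and 3. The groups still did not overlap, but KO sample 2 and WT sample 2 were only about 1 percentage point apart. The shares themselves depend on the length used, since Spag4 has 4831 bases of annotated exon but 1473 in its longest protein-coding transcript. With the coding transcript's length, Spag4 held 41.5% in KO and 60.0% in WT samples, Sun5 40.1% in KO and 26.4% in WT samples, and Sun3 18.4% in KO and 13.6% in WT samples. With that length, a choice made after seeing the data, the groups did not overlap for any of the 3 shares. Each gave the smallest p (exact permutation p = 0.1, also 0.1 adjusted over the 3). The 3 shares are parts of 1 sum, so a lower Spag4 share raises the others and these are not separate results. The ratio of Sun5 to Sun3, given above, does not depend on Spag4, and its groups overlapped.

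**Figure D2:**
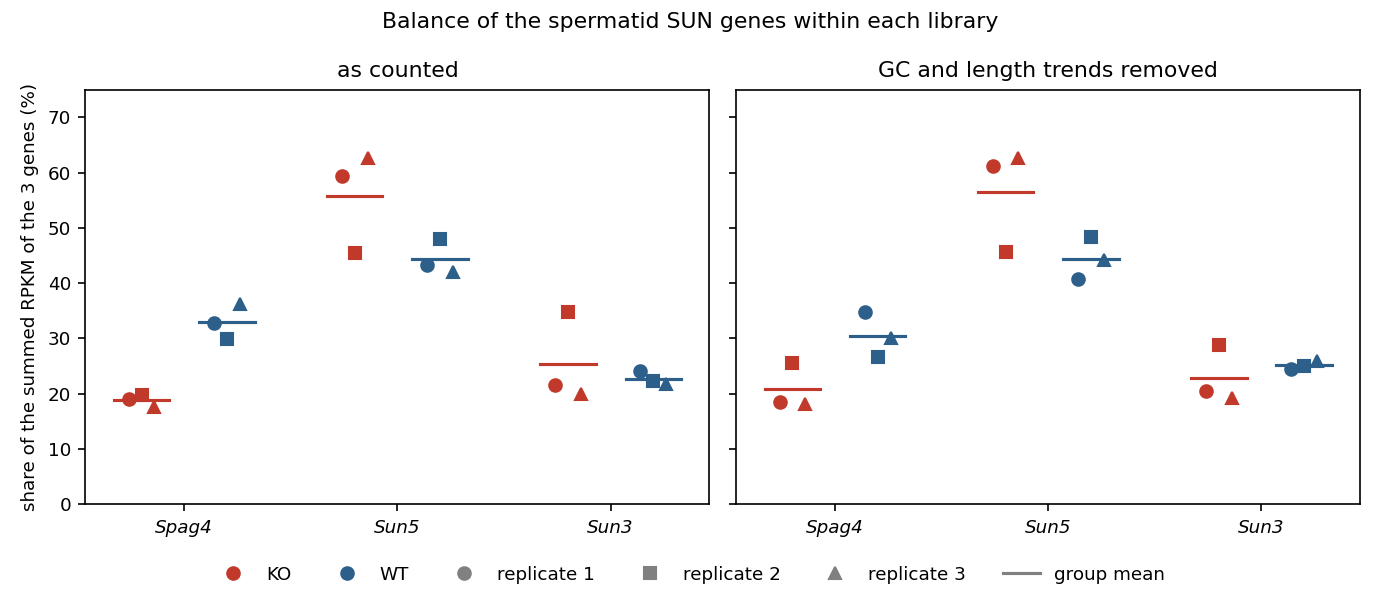
Share of Spag4, Sun5 and Sun3 in their summed RPKM (%) in each sample, as counted (left) and with each library's GC and length trends removed (right), with KO samples left of WT samples; horizontal lines are group means of 3 samples. The Spag4 share is lower in every KO sample than in every WT sample in both panels, while Sun5 and Sun3 overlap between the groups at this length, the union of exons.

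Among the proteins that build the coupling apparatus, Pmfbp1 transcripts were higher and Spatc1l transcripts lower in every KO sample, though neither passed edgeR's test, and Spata6 differed little. Pmfbp1 (ENSMUSG00000031727, mm10 chr8:109494027-109542640, plus strand) encodes a scaffold that connects SUN5 with SPATA6 in the coupling apparatus. It had 789, 784 and 821 CPM in KO samples 1, 2 and 3, against 606, 609 and 586 CPM in WT samples 1, 2 and 3. The samples of each group lay close together, with means of 798 ± 20.2 CPM in KO and 600.3 ± 12.4 CPM in WT samples (SD, n = 3 each). Its log2 fold change was 0.41 (SE 0.13), with an adjusted p of 0.0788 from edgeR and 0.0250 from DESeq2. It was 0.50 with the trends removed (95% interval 0.23 to 0.77, edgeR adjusted p = 0.0853), so the difference was not smaller in that fit. No other annotated gene overlaps Pmfbp1.

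Spatc1l (ENSMUSG00000009115, mm10 chr10:76562272-76570201, plus strand) encodes a protein of the coupling apparatus whose loss in mice separates heads from tails. It had 78.6, 85.0 and 109.5 CPM in KO samples 1, 2 and 3, against 163, 138 and 129.7 CPM in WT samples 1, 2 and 3. Every KO sample was below every WT sample. The log2 fold change of -0.66 (SE 0.17) narrowly missed the threshold with edgeR (adjusted p = 0.0506) and passed it with DESeq2 (adjusted p = 0.0186). With 57.2% GC it is the second most GC-rich of the 10, and with the trends removed the value was -0.21 (95% interval -0.51 to 0.10, edgeR adjusted p = 0.403). Spatc1l shares 135 exon bases with Gm15343 on the opposite strand, which had a mean of 3.83 CPM in KO and 3.12 CPM in WT samples.

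Spata6 (ENSMUSG00000034401, mm10 chr4:111719984-111829184, plus strand) encodes a protein needed to form the connecting piece between head and tail. It ranged from 495 to 513 CPM in KO samples and from 457 to 516 CPM in WT samples, and the KO range lay inside the WT range. The log2 fold change was 0.04 (95% interval -0.25 to 0.33, edgeR adjusted p = 0.875), and -0.12 with the trends removed.

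Of the centrosomal and tail-associated genes, Cntln rose, Tsga10 and Cep112 were higher in every KO sample without passing the test, and Ccdc42 differed little. Cntln (ENSMUSG00000038070, mm10 chr4:84884309-85131921, plus strand) encodes centlein, a centriole linker protein that also bridges SUN5 and PMFBP1 in the mouse coupling apparatus. It had 54.9, 55.1 and 41.5 CPM in KO samples 1, 2 and 3, against 29.4, 30.0 and 35.5 CPM in WT samples 1, 2 and 3. All KO samples were above all WT samples, though KO sample 3 and WT sample 3 came closest. Cntln differed by 0.67 on the log2 scale (SE 0.17). The edgeR adjusted p of 0.0466 is near the threshold, and leaving out any sample of the 6 brought the adjusted p to between 0.0573 and 0.182. With the trends removed it was 0.42 (95% interval 0.09 to 0.75, edgeR adjusted p = 0.151).

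Tsga10 (ENSMUSG00000060771, mm10 chr1:37754776-37866429, minus strand) encodes a sperm tail protein whose variants have been found in men with acephalic spermatozoa. It had 230.3, 283 and 209 CPM in KO samples 1, 2 and 3, against 187, 171 and 166 CPM in WT samples 1, 2 and 3. All KO samples were above all WT samples, with KO sample 2 the highest. Tsga10 differed by 0.46 on the log2 scale (SE 0.15), with an adjusted p of 0.0967 from edgeR and 0.0489 from DESeq2. With the trends removed it was -0.13 (95% interval -0.49 to 0.22, edgeR adjusted p = 0.660), which is of the opposite sign. Tsga10 is the most GC-poor of the 10, at 38.5%, and KO sample 2 is the library with the steepest GC trend. Without KO sample 2 the log2 fold change was 0.33, and the part of the GC trend in the difference was not tested.

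Cep112 (ENSMUSG00000020728, mm10 chr11:108425192-108860615, plus strand) encodes a centrosomal protein whose variants have likewise been found in men with acephalic spermatozoa. It had 145, 161 and 135 CPM in KO samples 1, 2 and 3, against 117, 105 and 112 CPM in WT samples 1, 2 and 3. The groups did not overlap, and the log2 fold change was 0.40 (SE 0.14, edgeR adjusted p = 0.102), against 0.20 with the trends removed (95% interval -0.09 to 0.48). Its level is uncertain because it shares 80 exon bases with the antisense gene Cep112os1, named here after its values were seen. Cep112os1 rose, with means of 20.8 CPM in KO and 9.28 CPM in WT samples (log2 fold change 1.16, edgeR adjusted p = 0.0161).

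Ccdc42 (ENSMUSG00000045915, mm10 chr11:68587021-68597966, plus strand) encodes a coiled-coil protein of the coupling apparatus and manchette that male mice need for fertility. It ranged from 138 to 179 CPM in KO samples and from 140.0 to 177 CPM in WT samples, almost the same range. Ccdc42 had a log2 fold change of 0.01 (95% interval -0.35 to 0.38, edgeR adjusted p = 0.969), and 0.27 with the trends removed (95% interval -0.03 to 0.56, edgeR adjusted p = 0.272).

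**Figure D3:**
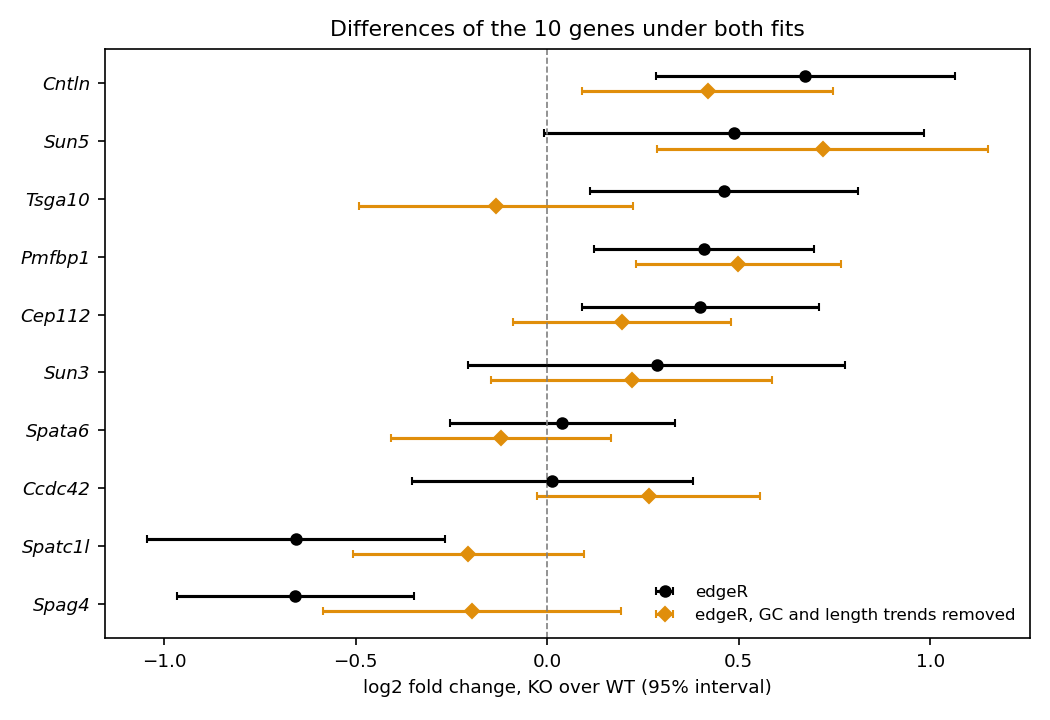
Log2 fold change of each of the 10 genes, KO over WT, with 95% intervals, from edgeR's fit (black circles) and from the same fit with each library's GC and length trends removed (orange diamonds); genes run from the highest value at the top to the lowest. Spag4 and Spatc1l move from -0.66 each to -0.20 and -0.21, Tsga10 from 0.46 to -0.13, and Sun5 from 0.49 to 0.72.

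The differences of the 10 genes were ordered by GC content in the same direction as those of the testis transcriptome at large. Spearman's rho between the log2 fold change and transcript GC content was -0.72 over the 10 genes and -0.53 over 12751 genes, values that share the same 6 libraries and are given as a description. The 2 genes above 57% GC, Spag4 and Spatc1l, had the only negative values. The GC-poor genes Tsga10, Cntln and Cep112 were on the positive side, as were Sun3 and, near 0, Spata6. Sun5, with 52.1% GC, and Pmfbp1, with 50.8% GC, had higher means in KO samples with a GC content near the middle of the range, and their values did not shrink when the trends were removed. Ccdc42, with a like GC content of 52.6%, had a value of 0.01, and 0.27 with the trends removed. With the trends removed, rho was -0.19 over the 10 genes.

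**Figure D4:**
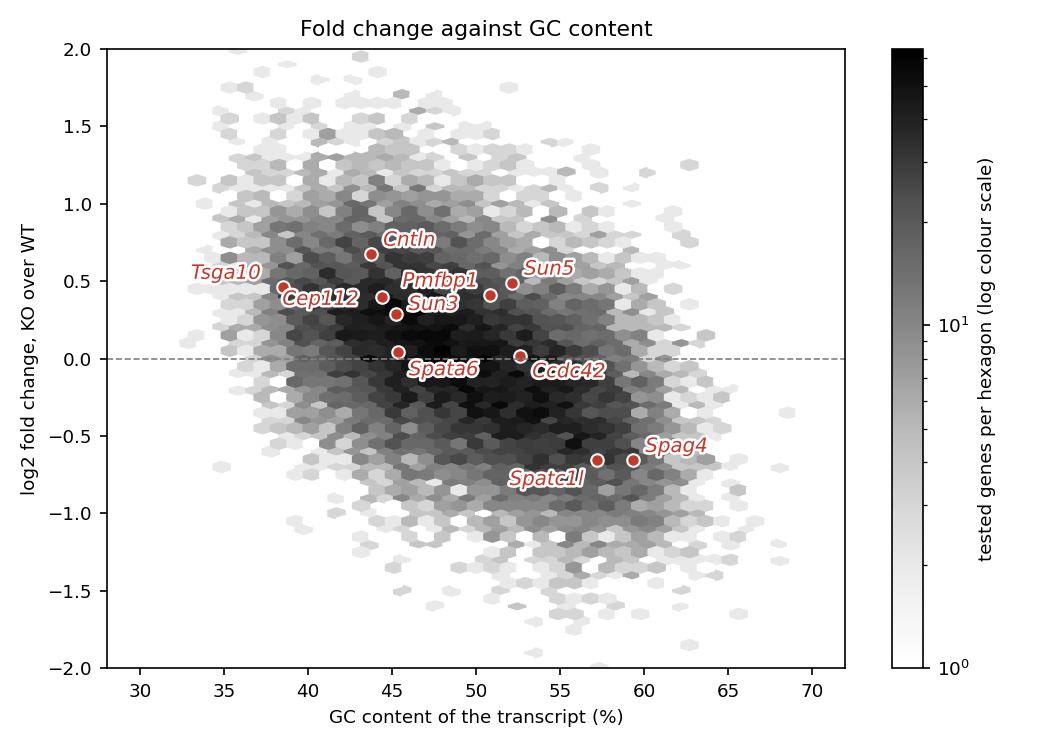
Log2 fold change, KO over WT, against GC content of the transcript (%) for the tested genes within the axes (grey hexagons, shaded by number of genes on a log scale) and for the 10 genes (red points). The hexagons have no cut on level, unlike the 12751 genes used for rho. The cloud slopes downward, with Spag4 and Spatc1l at its GC-rich lower end, Tsga10 at its GC-poor end, and Sun5 and Pmfbp1 above its centre.

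Per kilobase of transcript the 10 genes spanned a wide range, from the abundant scaffold Pmfbp1 to the scarce centriolar Cntln, and that order was largely shared by the groups. By the union of exons, Pmfbp1 was the highest with 222 ± 5.63 RPKM in KO and 167 ± 3.46 RPKM in WT samples, and Cntln the lowest with 7.11 ± 1.10 RPKM in KO and 4.45 ± 0.476 RPKM in WT samples (SD, n = 3 each). In KO samples Ccdc42 (104 RPKM), Spata6 (89.8), Sun5 (88.5) and Spatc1l (68.4) followed, and the mean ± SD ranges of neighbours overlapped. In WT samples the next level was held by Spatc1l (108 RPKM), Ccdc42 (103) and Spata6 (87.4), again with overlapping ranges between neighbours, and Sun5 came after them (63.1). Spag4 had a level of 29.4 RPKM in KO samples, below Sun3 (39.4 RPKM) but within its spread. In WT samples Spag4 stood at 46.3 RPKM, above Sun3 (32.3 RPKM) by more than their spread. Cep112 (23.8 RPKM in KO and 18.0 RPKM in WT samples) and Tsga10 (22.6 RPKM in KO and 16.4 RPKM in WT samples) were not separated in either group by the union of exons. With the length of the longest protein-coding transcript, a choice made after seeing the data, Spag4 stood at 96.4 RPKM in KO and 152 RPKM in WT samples, and above Sun3 in both groups. Spata6 then had 204 ± 3.66 RPKM in KO and 199 ± 12.4 RPKM in WT samples, which put it above Pmfbp1 (177 ± 3.67 RPKM) in WT samples by more than their spread. Tsga10 (60.8 ± 9.60 RPKM in KO and 44.2 ± 2.69 RPKM in WT samples) was then above Cep112 (42.2 ± 3.80 RPKM in KO and 31.9 ± 1.81 RPKM in WT samples) by more than their spread in both groups, so the order of these genes depends on the length used.

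**Figure D5:**
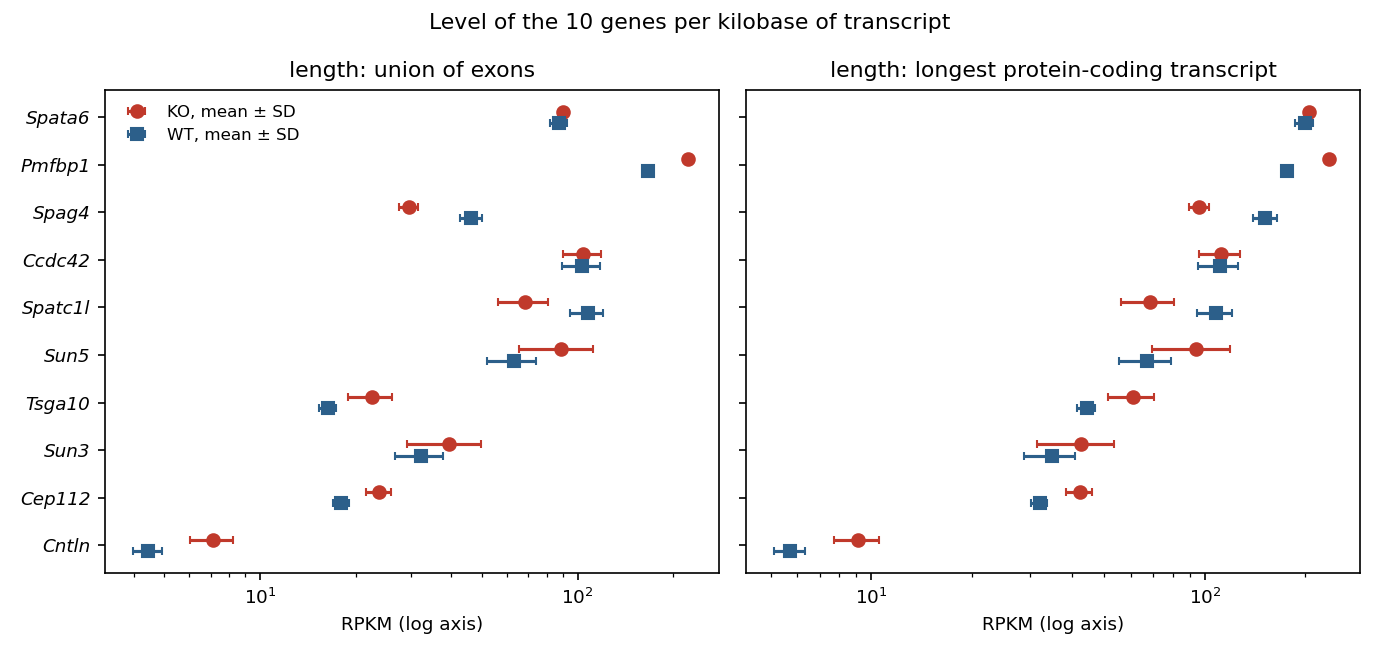
Level of each gene in RPKM on a log axis, as mean ± SD of 3 KO samples (red circles) and 3 WT samples (blue squares), with length taken as the union of exons (left) or as the longest protein-coding transcript (right). Pmfbp1 and Spata6 are at the top and Cntln at the bottom in the right panel, and Spag4, Spata6 and Tsga10 shift most between the panels.

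Other genes of the head-tail junction and centrosome were counted from a list of 18 fixed by name. Of these, 3 rose and 0 fell, and the median log2 fold change was -0.08. Over all genes tested, 3.11% rose and 5.12% fell. DESeq2 likewise called 3 that rose and 0 that fell, against 7.66% and 9.00% of the genes it tested. Hook1, a microtubule-binding protein of the manchette that is mutated in a mouse strain whose sperm heads detach easily, had 421 ± 3.23 CPM in KO and 255 ± 9.31 CPM in WT samples (log2 fold change 0.72, SE 0.13, edgeR adjusted p = 0.0186). Its span overlaps that of a tested gene, and shared exon bases are not given here for it, so its level is uncertain. Brdt, a testis bromodomain protein, rose by 0.65 (SE 0.13, edgeR adjusted p = 0.0253) and the centriolar gene Cep128 by 0.53 (SE 0.14, edgeR adjusted p = 0.0482). With the trends removed these 3 genes had values of 0.33, 0.51 and 0.28, and 0 of the 18 passed, with 3 higher and 0 lower at an unadjusted p under 0.05, where 11.1% and 10.6% of all genes were.

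Of 13 LINC complex and nuclear envelope genes, which hold the partners of the SUN proteins, 0 rose and 1 fell, with a median of -0.20. Over all genes 3.11% rose and 5.12% fell in edgeR's fit. DESeq2 likewise called 0 that rose and 1 that fell, against 7.66% and 9.00% of the genes it tested. The gene that fell was Lmna, the A-type lamin gene, with 16.4 ± 1.10 CPM in KO and 27.0 ± 3.51 CPM in WT samples (log2 fold change -0.72, SE 0.17, edgeR adjusted p = 0.0373). Its value was -0.28 with the trends removed, where 0 of the 13 passed. In that fit 1 was higher and 0 lower at an unadjusted p under 0.05, where 11.1% and 10.6% of all genes were. Of 18 genes of the manchette and the transport along it, 2 rose and 0 fell, with a median of 0.20. DESeq2 called 5 that rose and 1 that fell, against 7.66% and 9.00% of the genes it tested. Mns1, of the axoneme, rose by 0.98 (SE 0.16, edgeR adjusted p = 0.0168), and Iqcg, a calmodulin-binding protein of the sperm tail, by 0.60 (SE 0.15, edgeR adjusted p = 0.0402). The spans of both overlap those of tested genes, and shared exon bases are not given here for them, so their levels are uncertain. With the trends removed their values were 0.77 and 0.43, and 0 of the 18 passed. At an unadjusted p under 0.05, 5 were higher and 1 lower, where 11.1% and 10.6% of all genes were.

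All 10 genes act in spermatids, so markers of germ cell stages were read beside them. The 8 elongating spermatid markers summed to 17248 to 29400.1 CPM in KO samples and 22602 to 24166 CPM in WT samples. Of these, 1 rose and 2 fell: Smcp, of the sperm mitochondrial capsule, by 1.83 (SE 0.44, edgeR adjusted p = 0.0384), and the nuclear condensation genes Prm1 by -0.66 (SE 0.17, edgeR adjusted p = 0.0450) and Tnp2 by -0.63 (SE 0.16, edgeR adjusted p = 0.0451). The span of Prm1 overlaps that of a tested gene. After removal of the trends Smcp, Prm1 and Tnp2 had values of 1.86, -0.34 and -0.16, and did not pass. The 8 round spermatid markers summed to 1077 to 1359.8 CPM in KO samples and 964 to 1197 CPM in WT samples, and 0 passed edgeR's test, with 3 higher and 1 lower at an unadjusted p under 0.05 and 1 that rose and 1 that fell by DESeq2. The smallest p values among them belonged to Acrv1, an acrosomal protein gene (0.50, edgeR adjusted p = 0.0587), and Tssk1, a testis kinase gene (-0.58, edgeR adjusted p = 0.0659). The 8 pachytene spermatocyte markers summed to 4275 to 6055 CPM in KO samples and 5159 to 7221 CPM in WT samples, and 1 rose, the meiotic regulator Mybl1 (0.71, SE 0.15, edgeR adjusted p = 0.0280; 0.16 with the trends removed, where it did not pass). Of 8 spermatogonial markers 1 fell, Sohlh1 (-1.14, SE 0.28, edgeR adjusted p = 0.0423; -0.64 with the trends removed, where it did not pass), and they summed to 117 to 141 CPM in KO samples and 115 to 141 CPM in WT samples. Spermatid markers were thus present in every library of both groups. DESeq2 called 1 elongating marker that rose and 3 that fell, 2 pachytene markers that rose and 0 that fell. Of the spermatogonial markers it called 0 that rose and 1 that fell. Among the genes DESeq2 tested, 7.66% rose and 9.00% fell. Over all genes tested, 3.11% rose and 5.12% fell in edgeR's fit. At an unadjusted p under 0.05 in that fit, 12.1% were higher and 15.0% lower. No marker in these 4 lists was at 0 throughout, and their part in the differences of the 10 genes was not tested.

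Markers of somatic cells were read in the same way, and 0 of their 28 genes passed edgeR's test. The 8 Sertoli cell markers summed to 1073 to 1643 CPM in KO samples and 768 to 1115 CPM in WT samples, with 3 higher and 0 lower at an unadjusted p under 0.05 and 2 that rose by DESeq2. The Sertoli transcription factor genes with the smallest p were Wt1 (0.87, edgeR adjusted p = 0.0901) and Sox9 (1.16, edgeR adjusted p = 0.116). The 8 Leydig cell markers summed to 1160 to 1761 CPM in KO samples and 623 to 1396 CPM in WT samples, with 4 higher and 0 lower at an unadjusted p under 0.05 and 3 that rose by DESeq2. The Leydig genes with the smallest p were the steroidogenic genes Hsd17b3 (0.94, edgeR adjusted p = 0.0879) and Cyp17a1 (1.10, edgeR adjusted p = 0.0902). The 4 peritubular myoid markers summed to 116 to 175 CPM in KO samples and 84.5 to 157 CPM in WT samples, led by Myh11 (0.62, edgeR adjusted p = 0.263) and Tagln (-0.34, edgeR adjusted p = 0.310). The 4 macrophage markers summed to 23.7 to 36.2 CPM in KO samples and 17.3 to 37.1 CPM in WT samples, led by Cd68 (0.85, edgeR adjusted p = 0.131) and C1qa (-0.56, edgeR adjusted p = 0.217). The 4 endothelial markers summed to 33.7 to 45.5 CPM in KO samples and 23.6 to 48.5 CPM in WT samples, led by Pecam1 (0.87, edgeR adjusted p = 0.211) and Cdh5 (0.87, edgeR adjusted p = 0.224). At an unadjusted p under 0.05, 1 macrophage marker was higher and 0 of the myoid and endothelial markers differed, and DESeq2 called 0 in these 3 lists. Among the genes DESeq2 tested, 7.66% rose and 9.00% fell. Over all genes 12.1% were higher and 15.0% lower at that unadjusted p in edgeR's fit. In the fit without the trends 0 of the 28 passed as well, but all 8 Sertoli and all 8 Leydig markers had positive values, against 5 and 7 of 8 as counted. Their medians were 0.46 for Sertoli and 0.84 for Leydig markers with the trends removed, and 0.12 and 0.89 as counted. At an unadjusted p under 0.05 that fit had 3 Sertoli, 4 Leydig, 1 myoid, 1 macrophage and 2 endothelial markers higher and 0 lower. Over all genes in that fit 11.1% were higher and 10.6% lower, and 10874 of 21518 values were positive. As counted, 10610 of them were positive. As counted, WT sample 1 had the lowest sum of all samples in every somatic list. The Leydig sums of WT samples 2 and 3 were 1396 and 1276 CPM, inside the KO range. Their Sertoli sums were 1115 and 1054 CPM, beside 1073 CPM in KO sample 2. Of 4 epididymal markers, 3 had 0 counts in every sample, and Defb20 had 5 counts in WT sample 1 alone. The part of somatic cells in the differences of the 10 genes was not tested.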

How the data were processed

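Each sample has 1 deposited table of whole-number counts for Ensembl genes, with no normalization by the authors. The submitters' processing notes name Trimmomatic, HISAT2, HTSeq and the mouse build mm10, without versions. The sources used here do not give the annotation release or the strand setting. Per the labels' protocols, libraries were made from total RNA with an mRNA kit and sequenced on a NovaSeq instrument.

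Identifiers were matched to GENCODE M21 (GRCm38, which is mm10): 51633 of 51826 had a symbol. GC content is that of the longest protein-coding transcript. All 6 samples were fitted with edgeR 4.0.16 (R 4.3.3) by the quasi-likelihood test with TMM scaling and filterByExpr, without covariates, and adjusted p under 0.05 was the threshold. The alternative with trends removed used offsets from natural splines with 5 degrees of freedom in GC content and log length, estimated from the 12751 genes whose mean log2 CPM exceeded 2. DESeq2 1.42.0, other scalings and filters, a replicate block, a fit without mitochondrial genes and leaving out each sample were further alternatives. The fits were tested on simulated counts. Within each group, chi-square per degree of freedom between samples was 16.7 to 149, so no pair agreed within sampling noise.

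The 10 genes, the lists and the alternatives were chosen with earlier results of these data known. Named genes are the 10, Kifc1, every list gene that passed the test and, in a list with none, the 2 with the smallest p. Genes that overlap a member, and Defb20, are named outside this rule and were chosen after their values were seen.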

Additional observations from a re-analysis of the deposited data

How the results depend on the processing

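Leaving out single samples moved the number of genes that passed the test from 1770 to between 1 and 3149, the number among the 10 from 2 to between 0 and 2, and the number among the head-tail, LINC, manchette and germ cell lists from 11 to between 0 and 24. Only without KO sample 2 did the counts over all genes and over the lists go up. In these fits the log2 fold change ran from -0.70 to -0.57 for Spag4, 0.61 to 0.82 for Cntln, 0.39 to 0.44 for Pmfbp1, -0.012 to 0.10 for Spata6 and -0.085 to 0.16 for Ccdc42, and the Sun3 share difference from -1.95 to 5.49 percentage points. Without a filter on low counts 1010 genes passed, with 1 of the 10 and 4 of the lists, and with DESeq2 3197, 5 and 24. With the GC trend removed 9 genes passed, and with GC and length trends removed 13, with 0 of the 10 and 0 of the lists in both. Spag4 was then -0.19 and -0.20, Cntln 0.46 and 0.42, Spata6 -0.13 and -0.12 and Tsga10 -0.013 and -0.13. Cntln missed the threshold under library size scaling (0.66) and without a filter (0.68). Spatc1l passed it under library size scaling (-0.68), a floor of 1 CPM in any 3 samples (-0.65) and DESeq2 (-0.63). Pmfbp1 (0.43) and Tsga10 (0.48) passed it with DESeq2. Ccdc42 was -0.013 under library size scaling. The Spag4 share difference was -18.5 percentage points with the longest protein-coding transcript and -9.72 with trends removed, where that of Sun3 was -2.28. The cause of these changes was not tested. Sun5, Sun3 and Cep112 kept their sign and did not pass under any of 16 alternatives. The value of Sun5 nonetheless ran from 0.29 without KO sample 3 to 0.66 without KO sample 2, and that of Sun3 from 0.06 without KO sample 2 to 0.43 without KO sample 1. Every scaling kept the median of all genes within 0.1 of 0.

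With the replicate number as a block (replicate block), 21 genes passed, with 0 of the 10 and 0 of the lists, at unchanged fold changes for Spag4 (-0.66) and Cntln (0.67). With the block and the GC and length trends removed 5 genes passed, with 0 of the 10 and 0 of the lists, and Spag4 was -0.19, Cntln 0.42, Spata6 -0.12 and Tsga10 -0.13. Deviations of same-numbered samples from their group means correlated at -0.475, -0.119 and -0.141, and 0 of 3 KO samples correlated best with their own number. The values thus show no pairing by number. They hold each library's GC trend, so they cannot decide whether equal numbers share an origin.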
